A study of Homo sapiens with 3 samples.

Results

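The genes described here encode the spectrin-based membrane skeleton: the spectrins SPTAN1, SPTB, SPTBN1 and SPTBN4, the adducins ADD1, ADD2 and ADD3, the protein 4.1 genes EPB41 and EPB41L1, and ankyrin 1 (ANK1). They were chosen by name, and every probe set that the platform annotation gives to one of them alone was taken, which made 52 of 54613 probe sets and 10 of 19775 genes. The arrays read stable lines of PANC-1, a cell line from a human pancreatic ductal carcinoma, that expressed wild-type JMJD3, expressed a mutant JMJD3, or carried the blank MSCV retroviral vector as control. JMJD3 is the product of KDM6B and removes methyl groups from lysine 27 of histone H3. Per the labels none of the lines was treated further, and neither the mutation nor whether a line is a clone or a pool is given. Each line was read by 1 array. No replicate therefore stands behind any difference below, no test was possible and p-values are absent.

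Spectrin is a long flexible tetramer of alpha and beta chains that forms a network under the plasma membrane. Adducin and protein 4.1 fasten its ends to short actin filaments, adducin also capping the fast-growing filament end, and ankyrins tie the beta chain to channels, transporters and adhesion molecules. In red cells the network gives the membrane its elasticity, and in epithelial cells it supports the lateral membrane and cell contacts. The series title names this cytoskeleton and HKDC1, and the arrays bear on whether transcripts of its parts differ among the lines.

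Values are deposited log2 signals of single arrays. Signals were floored at log2 5.48, the pooled median of all arrays, and a gene counted as measured when 1 or both of the arrays compared exceeded it. Where 1 array did not exceed it the fold can only be bounded ("at least"), and differences of 2-fold or more were counted. The probe set with the highest mean signal stands for its gene, and the others are given beside it. Of the 52 probe sets, 31 were over the floor in at least 1 array and 26 in all 3. The other 21 lay between 2.89 and 5.48. Probe sets ending in _s_at or _x_at, 29 of the 52, share probes with other transcripts. Levels of different genes or probe sets cannot be set against each other, as probes differ in brightness.

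The array medians were 5.48 for wild-type JMJD3, 5.49 for mutant JMJD3 and 5.50 for control. The deposited value was the same in all 3 arrays for 21.0% of all probe sets and for 9 of the 52 described here, so an equal value does not show equal transcript levels. KDM6B probe set 1556067_a_at read 6.73 with wild-type JMJD3, 6.45 with mutant JMJD3 and 5.53 in control. Its probe set 41387_r_at read 7.66, 7.65 and 7.60 in the same order, and where either lies against the introduced sequence is not known. Of 7 ductal and simple epithelial markers, 6 were over the floor in every array, while E-cadherin (CDH1) read 4.62 in all. None of 2 acinar, 4 endocrine and 3 immune markers was over it in any array, while 3 of 6 fibroblast markers and 1 of 4 endothelial markers were over it in each.

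The measure nearest to an error in these data is the spread between probe sets of one gene. Its SD was 0.28 for wild-type against control over 6070 genes with several measured probe sets, 0.33 for mutant against control over 6101, and 0.42 for wild-type against mutant over 6149, all on the log2 scale. It covers differences between probes within the same RNA and nothing of the variation between cultures. This yardstick was chosen after the values were seen.

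All 10 genes were over the floor in all 3 arrays. In 6 of them the order was wild-type JMJD3 highest, control next and mutant JMJD3 lowest, an order that 23.9% of all 12867 genes over the floor in some array had. These were SPTAN1, SPTB, SPTBN4, ADD1, EPB41L1 and ANK1, and with SPTBN1 the mutant array was lowest in 7 of 10, against 31.7% of all genes. ADD3 and EPB41 had the opposite order, mutant highest and wild-type lowest, which 18.1% of all genes had. In several of these genes the steps were small, as the values below show. These counts take 1 probe set per gene. Of the 31 probe sets over the floor in some array, 11 had the order wild-type, control, mutant, against 22.6% of all 23519. The mutant array was lowest at 14 of the 31, against 31.5%.

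**Figure D1:**
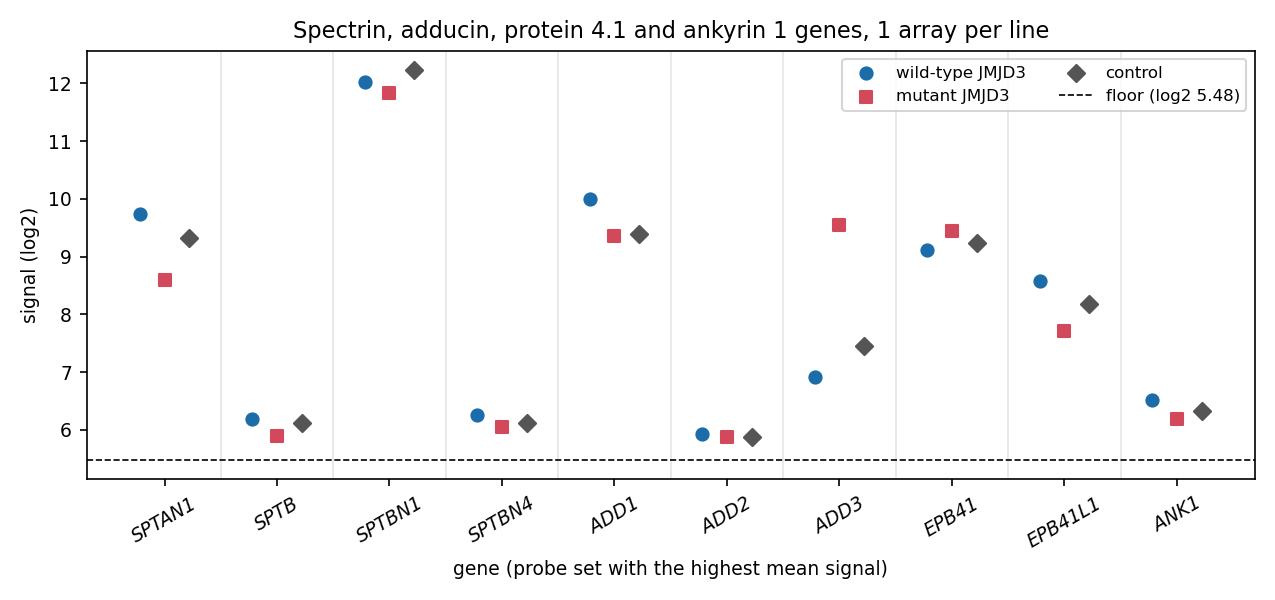
Log2 signal (vertical axis) of the probe set that stands for each gene (horizontal axis), 1 point per array, with the floor dashed. In ADD3 the mutant JMJD3 point at 9.55 stands far above those of wild-type JMJD3 (6.91) and control (7.45), while SPTAN1 is highest with wild-type JMJD3 (9.74) and lowest with mutant JMJD3 (8.59); only points of 1 gene can be compared.

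Against control, 0 of the 10 genes differed by 2-fold with wild-type JMJD3, where 0.953% of the 12697 measured genes were higher and 1.31% lower by that much. The median difference of the 10 was 0.105, against 0.05 for all measured genes. With mutant JMJD3, 1 of the 10 was 2-fold higher than control (2.98% of 12707 measured genes) and 0 were 2-fold lower (0.535%). That gene was ADD3, and the median of the 10 was -0.095, against 0.00 for all genes. Between the JMJD3 arrays, 1 gene was 2-fold higher with wild-type than with mutant (SPTAN1, 2.61% of 12829 measured genes) and 1 was 2-fold lower (ADD3, 6.2%), and the median was 0.25, against 0.00. Both comparisons with control use the same control array, so their values are not independent.

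Differences wider than the spread between probe sets were found in 4 of 10 genes in each comparison. With wild-type JMJD3 against control these were ADD1, ADD3, SPTAN1 and EPB41L1, while 48.3% of all measured genes differed by as much. With mutant against control they were ADD3, SPTAN1, EPB41L1 and SPTBN1 (30.7% of all), and with wild-type against mutant ADD3, SPTAN1, EPB41L1 and ADD1 (39.6%). The counts of members thus lay near those of all genes. SPTB, SPTBN4, ADD2, EPB41 and ANK1 stayed within that spread in every comparison at the probe sets that stand for them.

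**Figure D2:**
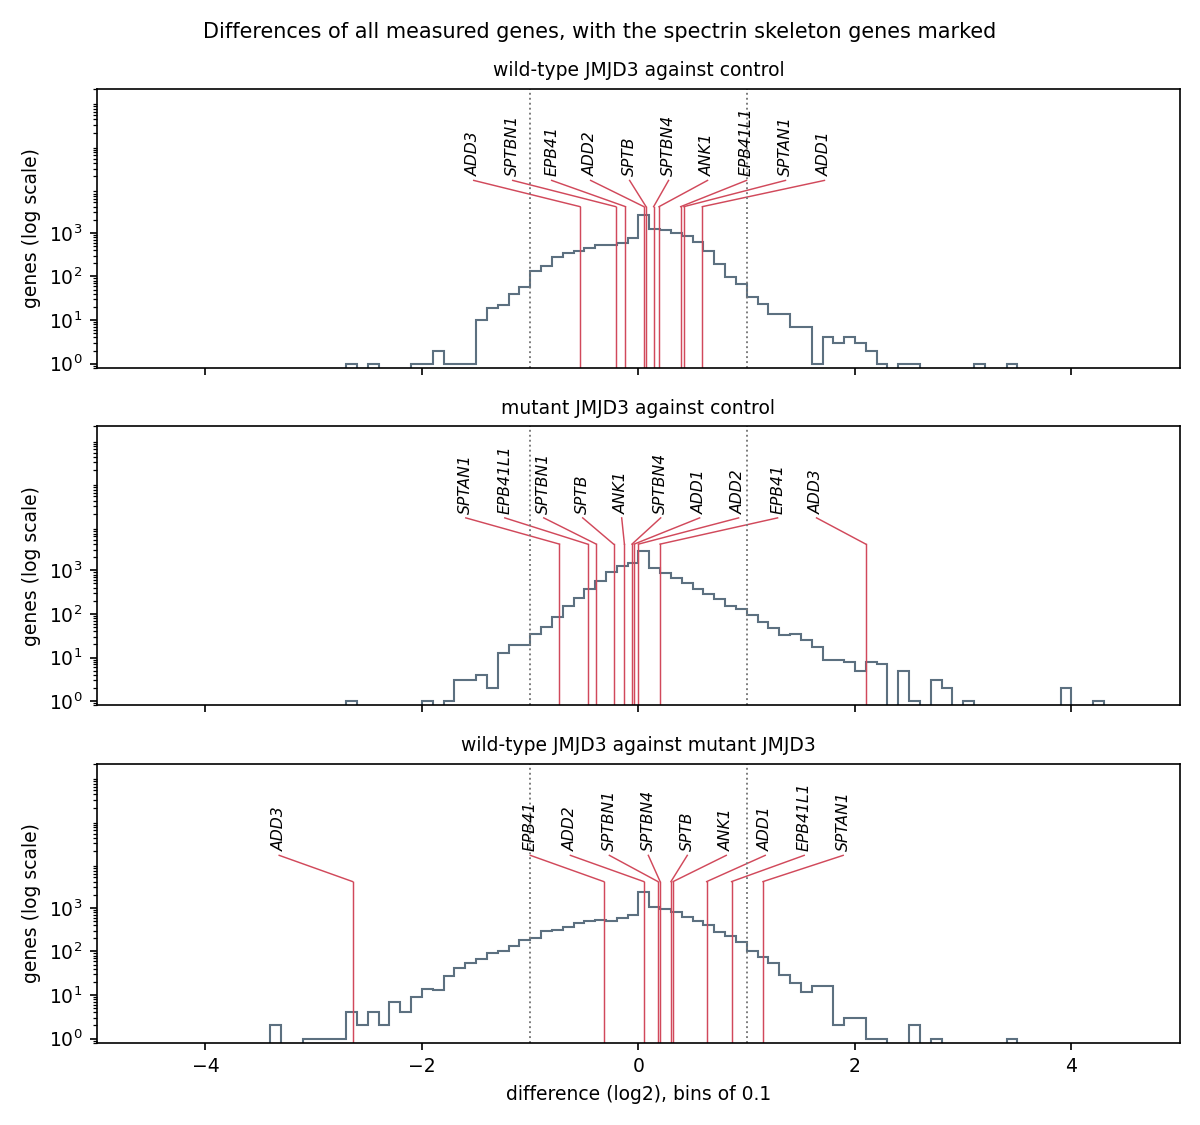
Differences of all measured genes in bins of 0.1 log2 (horizontal axis) against the number of genes (vertical axis, log scale) for each comparison, with the 10 genes marked by lines and dotted lines at 2-fold. ADD3 lies at 2.10 for mutant against control and at -2.64 for wild-type against mutant, far from the bulk, and the others lie between -0.73 and 1.15.

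SPTAN1 encodes the alpha chain that most non-erythroid cells use. Its probe set 215235_at read 9.74 with wild-type JMJD3, 8.59 with mutant JMJD3 and 9.32 in control. Wild-type was thus 2.22-fold over mutant and 1.34-fold over control, and mutant was 1.66-fold under control. In order of the difference SPTAN1 was number 189 from the top of 12829 genes for wild-type against mutant and number 215 from the bottom of 12707 for mutant against control. As bulk RNA was read, fewer cells with a transcript and less of it per cell cannot be told apart, here or below.

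The other SPTAN1 probe sets did not all follow. The array order was the same for 208611_s_at, which read 7.99 with wild-type JMJD3, 7.08 with mutant JMJD3 and 7.43 in control. Probe set 214925_s_at read 7.18 in both JMJD3 arrays and 7.35 in control. Probe set 241150_at read 6.40 in both and 6.35 in control, and 214926_at lay at 4.62 in all. So 2 of the 4 measured probe sets put wild-type over mutant, by 1.88-fold and 2.22-fold, and the other 2 gave the JMJD3 arrays the same value. The median signal of the SPTAN1 probe sets within each array differed by 0.10 for wild-type against mutant and by -0.17 for wild-type against control. Such a median can fall on different probe sets in different arrays. The 0.10 set 214925_s_at with wild-type JMJD3 against 208611_s_at with mutant JMJD3, and the -0.17 was that of 214925_s_at alone.

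The bases before the annotated start of SPTAN1 are shown because this gene had the widest difference of the spectrins. They are the 250 bases upstream at chr9:128552337-128552586 on the plus strand (GRCh38.p14, RefSeq), 5′ to 3′, and hold 46 CG pairs, more than or as many as 99.7% of 35116 RefSeq promoters of that length, whose median is 11. Capitals mark matches on either strand to GGGCGG, the GC box read by SP1 family factors, of which there are 5, and to TATAAA, the TATA box, of which there is 1. Across all these promoters 42.6% hold GGGCGG and 10.7% TATAAA.
SPTAN1: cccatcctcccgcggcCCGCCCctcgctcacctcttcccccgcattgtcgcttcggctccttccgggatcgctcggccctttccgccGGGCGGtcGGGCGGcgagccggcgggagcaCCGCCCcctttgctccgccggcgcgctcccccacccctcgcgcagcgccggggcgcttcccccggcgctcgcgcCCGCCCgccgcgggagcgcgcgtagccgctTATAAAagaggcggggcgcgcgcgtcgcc
CG-rich promoters are the class at which Polycomb complexes place the histone mark that JMJD3 removes, which is background and was not measured here.

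SPTBN1, the main beta chain of non-erythroid cells, had 11 probe sets, 4 of them measured. Probe set 212071_s_at read 12.02 with wild-type JMJD3, 11.84 with mutant JMJD3 and 12.23 in control, so both JMJD3 arrays were lower than control, by 1.16-fold and 1.31-fold. Probe set 200672_x_at read 7.92, 7.64 and 8.10 in the same order. Probe set 226342_at, which is not marked as shared, read 8.73 with wild-type JMJD3, 7.85 with mutant JMJD3 and 8.70 in control. There mutant was 1.80-fold under control and wild-type 1.84-fold over mutant, while wild-type and control differed by 0.03. Probe set 226765_at held 7.38 in all 3 arrays. The mutant array was therefore the lowest at 3 of 4 measured probe sets, with differences of -0.39 to -0.85 against control.

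SPTB, the erythroid beta chain, and SPTBN4, the beta chain of axon initial segments and nodes of Ranvier, were near the floor. SPTB probe set 208416_s_at read 6.19 with wild-type JMJD3, 5.89 with mutant JMJD3 and 6.12 in control, and its other probe set, 214145_s_at, read 5.76 in all. SPTBN4 probe set 220185_at read 6.25 with wild-type JMJD3, 6.05 with mutant JMJD3 and 6.11 in control, and 224145_s_at held 5.97 in all 3. The other 3 SPTBN4 probe sets, all at or under the floor, lay between 4.80 and 5.48. The largest difference of either gene was 0.30 on the log2 scale, for SPTB with wild-type against mutant.

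The 3 adducins did not move together. ADD1 and ADD3 encode the alpha and gamma subunits found in most tissues, which pair with each other outside the blood, and ADD2 encodes the beta subunit of red cells and brain. ADD1 was highest with wild-type JMJD3 and ADD3 with mutant JMJD3.

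ADD3 probe set 201034_at read 6.91 with wild-type JMJD3, 9.55 with mutant JMJD3 and 7.45 in control. Mutant was 4.29-fold over control, number 30 from the top of 12707 genes, and wild-type was 6.23-fold under mutant, number 10 from the bottom of 12829. Wild-type was 1.45-fold under control. Its other probe sets had the same order in all cases. Probe set 201753_s_at read 6.45 with wild-type JMJD3, 9.02 with mutant JMJD3 and 6.73 in control, a 4.89-fold excess of mutant over control. Probe set 201752_s_at read 5.88, 8.07 and 6.28 in the same order, with mutant 3.46-fold over control. Probe set 205882_x_at read 5.28, 7.77 and 6.15, with mutant 3.07-fold over control and wild-type at least 4.89-fold under mutant. All 4 probe sets thus passed 2-fold with the mutant highest, and in all 4 wild-type lay below control. At the 3 over the floor in every array that difference was -0.28 to -0.54, and at 205882_x_at, where wild-type was under the floor, it was only bounded.

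ADD1 probe set 208030_s_at read 9.99 with wild-type JMJD3, 9.36 with mutant JMJD3 and 9.40 in control, so wild-type exceeded control 1.51-fold and mutant 1.55-fold. Probe set 214736_s_at read 9.24, 8.47 and 8.81 in the same order, and 214726_x_at read 6.94, 6.79 and 6.79. Wild-type was the highest array at all 3 measured probe sets, by 0.15 to 0.59 against control. Mutant differed from control by -0.04, -0.34 and 0.00 at these probe sets. All 3 share probes with other transcripts, and the remaining probe set, 238939_at, lay under the floor.

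ADD2 was read differently by different probe sets. The one that stands for the gene, 206807_s_at, read 5.92 with wild-type JMJD3, 5.87 with mutant JMJD3 and 5.87 in control. Probe set 205268_s_at read 5.20 with wild-type JMJD3, 6.86 with mutant JMJD3 and 4.94 in control, so mutant was at least 2.60-fold over both. Probe set 213484_at read 5.26, 5.99 and 5.20 in the same order, and 230988_at read 5.20, 6.00 and 5.20. At these 3 probe sets only the mutant array was over the floor, with bounds of at least 1.42-fold and 1.43-fold for the last 2. The other 2 probe sets stayed between 4.87 and 5.30. Over all 10 genes, 5 of 30 measured probe sets were 2-fold higher with mutant than in control, against 2.95% of all 23162. These were the 4 of ADD3 and 1 of ADD2. They are not 5 separate results, as the 4 of ADD3 read 1 gene in the same RNA. The 1 of ADD2 was over the floor with mutant JMJD3 only, so that being measured fixed its direction.

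As ADD2 is a gene of neurons and red cells, markers of both were read. Of 8 neuronal markers, 3 were over the floor with wild-type JMJD3, 4 with mutant JMJD3 and 3 in control. SNAP25, a synaptic fusion protein, read 7.84, 8.89 and 7.78 in that order, and SYT1, a synaptic calcium sensor, 4.80, 5.54 and 4.64. The other two over the floor were lowest with mutant JMJD3: TUBB3, a neuronal tubulin, read 11.62, 11.41 and 11.54, and RBFOX3, a splicing factor of neurons, 5.77, 5.50 and 5.57. NEFL, NEFM, STMN2 and SCN2A were under the floor in every array, and the summed linear signal of the list was 3540, 3364 and 3347. The part of such transcripts in the ADD2 values was not tested.

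**Figure D3:**
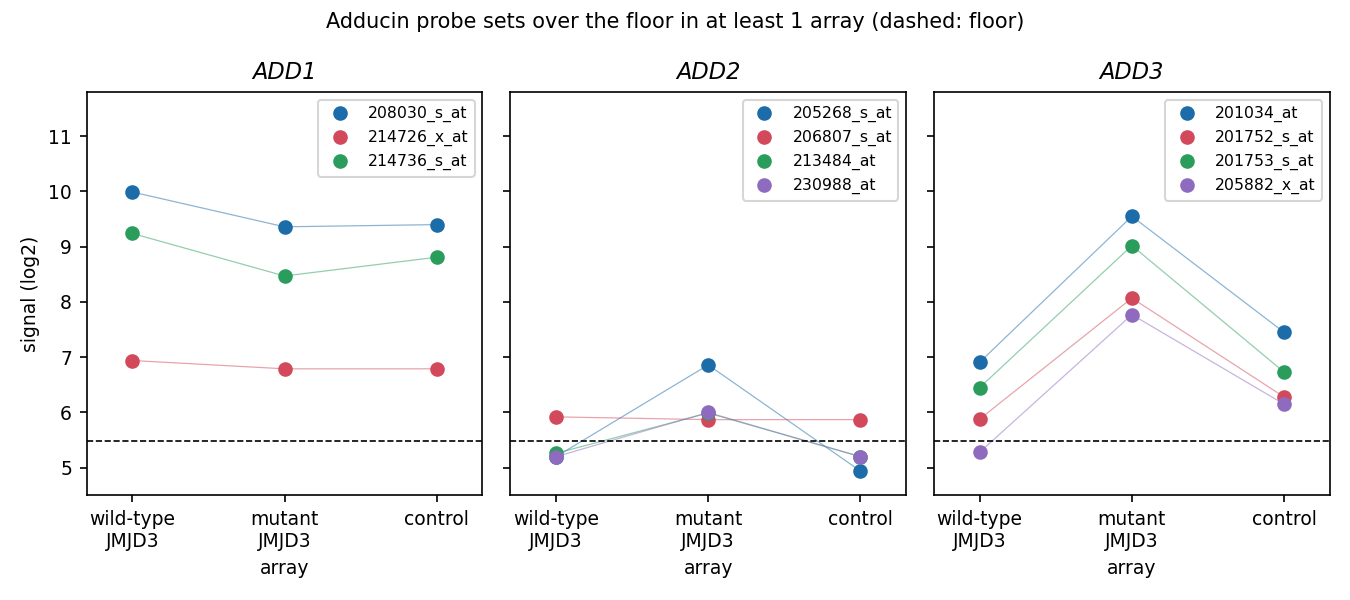
Log2 signal (vertical axis) of each adducin probe set over the floor in at least 1 array, by array (horizontal axis), with the floor dashed and thin lines joining the points of 1 probe set. All 4 ADD3 probe sets peak with mutant JMJD3, while the 3 ADD1 probe sets are highest with wild-type JMJD3. Of the 4 ADD2 probe sets, 3 are shown only because the mutant array was over the floor, so they could only peak there. The other ADD2 probe set is nearly flat.

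The upstream bases of ADD2 and ADD3 are shown because these genes had probe sets past 2-fold and because the annotated starts of ADD3 differ in kind. ADD3 has 3 annotated starts in the table. The outermost has 2 CG pairs in 250 bases and the innermost 26, and the middle one also 2. Capitals mark GGGCGG or TATAAA on either strand, as above. The ADD2 window is chr2:70768201-70768450 on the minus strand, and the ADD3 windows are chr10:109996123-109996372 and chr10:110007734-110007983 on the plus strand (GRCh38.p14, RefSeq).
ADD2: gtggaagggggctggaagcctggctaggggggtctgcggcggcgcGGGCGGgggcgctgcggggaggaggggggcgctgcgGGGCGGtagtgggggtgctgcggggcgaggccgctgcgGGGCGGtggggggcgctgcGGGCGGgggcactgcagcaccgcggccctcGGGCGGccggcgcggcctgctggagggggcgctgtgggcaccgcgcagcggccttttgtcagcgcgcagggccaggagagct
ADD3, outermost start: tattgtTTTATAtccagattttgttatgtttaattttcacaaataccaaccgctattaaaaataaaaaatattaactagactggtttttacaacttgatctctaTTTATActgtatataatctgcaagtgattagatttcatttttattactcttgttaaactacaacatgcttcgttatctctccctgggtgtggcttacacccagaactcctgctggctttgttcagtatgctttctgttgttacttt
ADD3, innermost start: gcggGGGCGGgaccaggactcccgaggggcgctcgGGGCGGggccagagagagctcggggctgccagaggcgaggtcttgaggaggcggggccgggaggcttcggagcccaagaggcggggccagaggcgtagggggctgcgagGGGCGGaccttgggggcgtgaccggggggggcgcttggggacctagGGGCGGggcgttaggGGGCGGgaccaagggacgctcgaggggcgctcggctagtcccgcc
GGGCGG occurs 5 times in the ADD2 window shown, 0 times before the outermost ADD3 start and 5 times before the innermost. TATAAA occurs 2 times before the outermost ADD3 start only. ADD2 has 2 annotated starts, and the window shown is that of the outermost, with 31 CG pairs. The window of its other start, not shown, holds 22 CG pairs and 1 GGGCGG. Which start the measured ADD3 transcripts used was not read by these arrays. The CCAAT box, held by 32.0% of all promoters, had no match in the windows shown. Nor did the AP-1 element TGANTCA, held by 6.57%, or the E-box in its form CACGTG, held by 6.34%.

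EPB41, the founding protein 4.1, was read by 1 measured probe set. Probe set 225051_at read 9.12 with wild-type JMJD3, 9.44 with mutant JMJD3 and 9.24 in control, so wild-type was 1.25-fold under mutant. Its other 3 probe sets held 5.48, 3.95 and 2.89, each the same in all arrays. EPB41L1, the form known as 4.1N that is prominent in neurons, went the other way. Probe set 212339_at read 8.57 with wild-type JMJD3, 7.71 with mutant JMJD3 and 8.18 in control, with wild-type 1.82-fold over mutant. Probe set 212336_at read 6.97, 6.55 and 7.13 in the same order. Mutant was the lowest array at both, with differences of -0.47 and -0.58 against control, while wild-type was above control at one and below it at the other. Probe set 222066_at, over the floor with wild-type JMJD3 only, read 5.58 there, against 4.80 with mutant JMJD3 and 5.10 in control.

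ANK1, the ankyrin that anchors red cell spectrin to the anion exchanger, had 7 probe sets, 4 of them measured and all 4 of shared sequence. Probe set 208353_x_at read 6.51 with wild-type JMJD3, 6.19 with mutant JMJD3 and 6.32 in control. Probe set 208352_x_at read 6.59, 5.90 and 6.23 in the same order, with wild-type 1.61-fold over mutant. Probe sets 205391_x_at and 207087_x_at read 6.03 and 6.31 with wild-type JMJD3, and 5.67 and 6.20 in both other arrays. Wild-type was therefore the highest array at all 4, by 0.11 to 0.36 against control, with no difference of 2-fold. All 4 end in _x_at and so may also read other transcripts.

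SPTB and ANK1 are genes of red cells, so erythroid markers were read as well. HBB, the beta globin, read 10.71 with wild-type JMJD3, 7.23 with mutant JMJD3 and 7.53 in control, and the 6 erythroid markers summed to a linear signal of 1837, 294 and 346. GATA1, the erythroid transcription factor, read 5.76, 5.44 and 5.71. ALAS2, SLC4A1, EPB42 and KLF1 were under the floor in all 3 arrays. The part of erythroid transcripts in the SPTB and ANK1 values was not tested.

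**Figure D4:**
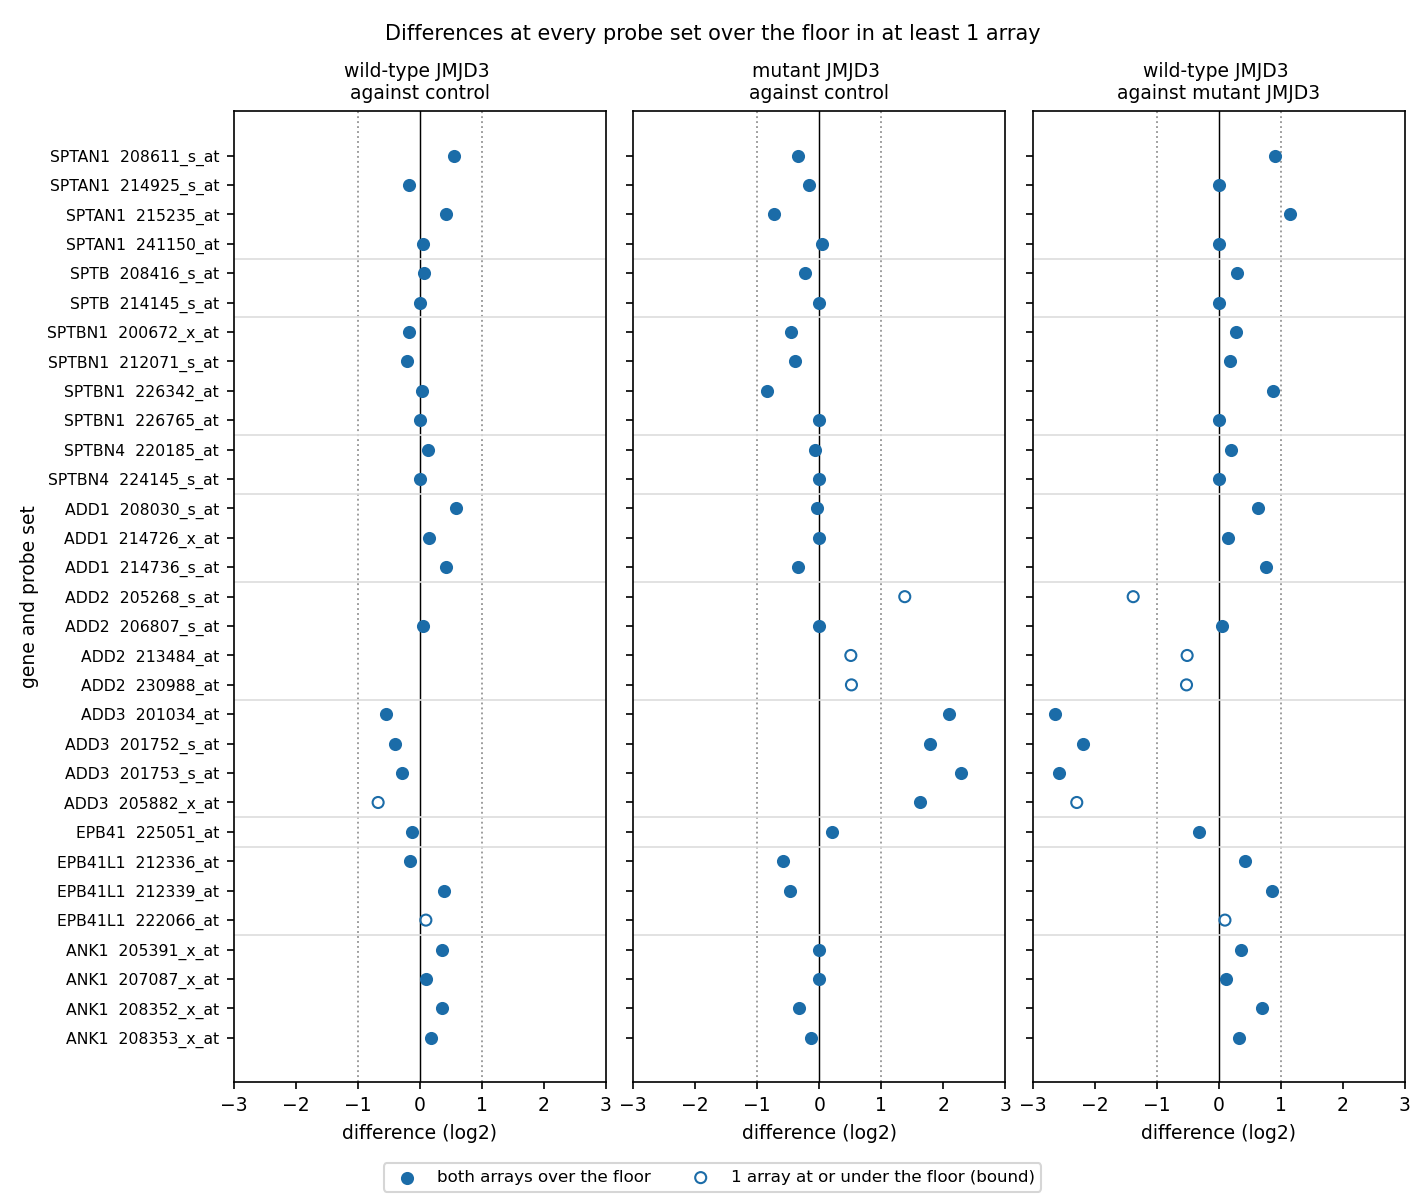
Log2 difference (horizontal axes) at each of the 31 probe sets over the floor in at least 1 array (rows, by gene), for the 3 comparisons, with dotted lines at 2-fold and open circles where 1 array was at or under the floor. ADD3 stands to the right for mutant against control in all 4 rows and to the left for wild-type against mutant, and the SPTAN1 and SPTBN1 rows are split between probe sets with a difference and probe sets at or near 0.

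At the level of probe sets, wild-type JMJD3 was above control at 16 of 28 measured probe sets and below at 9, against 49.2% and 38.5% of all 23088. Mutant JMJD3 was above control at 9 of 30 and below at 14, against 43.3% and 43.2% of 23162. Wild-type was above mutant at 18 of 31 and below at 8, against 47.1% and 42.4% of 23359. Those 8 were the 4 of ADD3, 3 of ADD2 and the 1 of EPB41. The 3 of ADD2 were over the floor with mutant JMJD3 only, so that being measured fixed their direction, also against control. Among the 18, EPB41L1 222066_at was over the floor with wild-type JMJD3 only, so its direction was likewise fixed.

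Genes whose pattern lay nearest to those of ADD3 and SPTAN1 were sought among 8567 genes over the floor in all 3 arrays and bright, over log2 7.59, in at least 1. Nearness was the Euclidean distance between the pairs of differences from control, so it rests on 3 arrays that share a control and is a description only. Nearest to ADD3 were H2BC21 (distance 0.22), TXNIP (0.24), ATP8A1 (0.24), ZNF277 (0.25) and H2BC4 (0.34). TXNIP, an arrestin that limits glucose uptake, read 9.27 with wild-type JMJD3, 11.96 with mutant JMJD3 and 9.67 in control. ATP8A1, a phospholipid flippase, read 6.65, 9.07 and 6.95 in the same order. Nearest to SPTAN1 were DDX49, RBM14, CYREN, BTBD6 and TXNRD2, at distances of 0.022 to 0.036. ADD3 lay far from the bulk, where genes are few, so its distances cannot be set against those of SPTAN1. DDX49, an RNA helicase gene, read 10.23, 9.05 and 9.80.

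Partners of the membrane skeleton were read as 6 lists, chosen with earlier results of these data known. Over all measured genes the medians were 0.05 for wild-type against control and 0.00 in the other comparisons. The shares 2-fold higher and lower were 0.953% and 1.31% for wild-type against control. They were 2.98% and 0.535% for mutant against control, and 2.61% and 6.2% for wild-type against mutant. Of 10 other spectrins, ankyrins and protein 4.1 relatives on the array, 5 were measured for wild-type against mutant, and none reached 2-fold. At the probe sets that stand for them, EPB41L2, EPB41L4B and EPB41L5 were over the floor in every array and differed by -0.63, -0.64 and -0.63. Of all 12829 measured genes, 40.5% were lower with wild-type than with mutant. The difference was only -0.09 at 201718_s_at of EPB41L2 and -0.29 at 223427_s_at of EPB41L4B. EPB41L3 and FRMD3 were over it with mutant JMJD3 only, so that being measured fixed their direction. EPB41L5, a regulator of epithelial polarity, read 7.57 with wild-type JMJD3, 8.20 with mutant JMJD3 and 7.70 in control. Its probe set 230951_at read 5.17, 6.83 and 5.57, past 2-fold with mutant highest, while 225855_at read 7.65, 7.72 and 7.68. EPB41L2, the widely expressed 4.1G, read 8.77, 9.40 and 9.12. EPB41L3, known as 4.1B, read 4.91 with wild-type JMJD3, 5.86 with mutant JMJD3 and 3.19 in control, and FRMD3 read 5.35, 5.87 and 4.85. SPTBN5, ANK2, ANK3, EPB41L4A and EPB42 were under the floor in every array.

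On the actin side of the junction, 14 genes were measured, with medians of 0.155 for wild-type against control, -0.05 for mutant against control and 0.28 for wild-type against mutant. At the probe sets that stand for these genes, the only one past 2-fold was DMD, the dystrophin gene, a spectrin relative that links actin to the membrane. It read 9.74 with wild-type JMJD3, 11.15 with mutant JMJD3 and 10.19 in control, while its other measured probe set read 6.99 in both JMJD3 arrays and 6.95 in control. TPM4, a tropomyosin, read 9.59, 8.62 and 9.43, and UTRN, the dystrophin homologue utrophin, 7.93, 8.73 and 8.83. TMOD1, which caps the slow-growing ends of the short filaments, read 6.67, 7.04 and 6.09. Other probe sets of this list also passed 2-fold and are named with their values known. TPM4 1567107_s_at read 9.18 with wild-type JMJD3, 8.03 with mutant JMJD3 and 8.96 in control, and 212654_at of TPM2, another tropomyosin, 7.73, 6.37 and 7.21, 2.22-fold and 2.57-fold higher with wild-type than with mutant. But TPM4 209344_at read 8.26 in both JMJD3 arrays and 8.37 in control, and TPM4 1559989_at held 6.21 in all. TMOD1 203662_s_at read 6.01, 6.77 and 5.65, with mutant 2.17-fold over control.

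Among membrane proteins and scaffolds that bind ankyrin or protein 4.1, 14 were measured for wild-type against mutant. L1CAM, an adhesion molecule with an ankyrin-binding tail, read 10.61 with wild-type JMJD3, 9.39 with mutant JMJD3 and 9.63 in control, 2.33-fold higher with wild-type than with mutant. Its other probe set, 204585_s_at, read 6.21, 6.06 and 6.09, where that excess was 1.11-fold. SLC4A2, an anion exchanger, read 7.90, 6.86 and 7.10, a 2.06-fold excess of wild-type over mutant. CD44, the hyaluronan receptor, read 10.91, 11.23 and 9.90, so that both JMJD3 arrays were over control, 2.01-fold and 2.51-fold. Of its 9 measured probe sets, 6 were 2-fold higher than control with wild-type and 3 with mutant. Wild-type was above mutant at 7 of the 9, unlike at the one that stands for the gene. Another probe set of ITPR1, a calcium release channel, also passed 2-fold: 240052_at read 7.72 with wild-type JMJD3, 6.58 with mutant JMJD3 and 7.52 in control. The medians of this list were 0.155, -0.01 and 0.125 for wild-type against control, mutant against control and wild-type against mutant.

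Calpains and caspases cut spectrin, and calpastatin inhibits calpain. Calpastatin (CAST) read 10.56 with wild-type JMJD3, 12.30 with mutant JMJD3 and 11.47 in control, so that mutant exceeded wild-type 3.34-fold. The same order held at its other bright probe sets, 207467_x_at (10.73, 11.38 and 11.30) and 208908_s_at (10.30, 11.00 and 10.86), though under 2-fold. CAPNS1, the small subunit that both ubiquitous calpains share, read 10.63 with wild-type JMJD3, 9.53 with mutant JMJD3 and 10.01 in control, 2.14-fold higher with wild-type than with mutant. CAPN1, a catalytic subunit, read 7.78, 7.14 and 7.27, but 7.32, 7.39 and 7.46 at its other probe set. Over the 6 measured genes of this list 1 was 2-fold higher and 1 lower with wild-type than with mutant, against 2.61% and 6.2% of all genes. The medians were 0.17, -0.065 and 0.21 for wild-type against control, mutant against control and wild-type against mutant.

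The list of kinases, phosphatases and regulators of adducin phosphorylation had 10 measured genes. Only MARCKS, which is itself a kinase substrate, passed 2-fold at the probe set that stands for it, and only for mutant against control. MARCKS, a protein kinase C substrate whose basic domain resembles the tail of adducin, read 11.12 with wild-type JMJD3, 10.48 with mutant JMJD3 and 11.58 in control, so mutant was 2.14-fold under control. Its 4 probe sets over the floor in every array were below control in both JMJD3 arrays. PRKACB, a catalytic subunit of protein kinase A, read 8.66, 9.53 and 9.03. Its probe set 235780_at read 5.34, 6.67 and 5.49, with mutant 2.27-fold over control and at least 2.28-fold over wild-type. ROCK1, a serine/threonine kinase of the actomyosin skeleton, read 9.47, 10.14 and 9.96. Its probe set 214578_s_at read 7.31, 7.70 and 7.72, but 230239_at read 7.33, 7.13 and 7.36, and 235854_x_at 5.77, 5.77 and 5.68. The medians were -0.17 for wild-type against control, 0.00 for mutant against control and -0.335 for wild-type against mutant. Of ezrin, radixin, moesin and linked genes, 6 were measured and 0 passed 2-fold at the probe sets that stand for them. Of the 4 measured probe sets of NF2, the merlin gene, 217150_s_at did, at 7.43 with wild-type JMJD3, 6.53 with mutant JMJD3 and 6.41 in control, 2.03-fold higher with wild-type than in control. RDX, the radixin gene, was furthest apart for wild-type against mutant (-0.97), at 11.26 with wild-type JMJD3, 12.23 with mutant JMJD3 and 12.00 in control. Its other measured probe sets differed less there, by -0.38 at 212398_at and -0.52 at 204969_s_at. The medians of the 6 genes were 0.21, 0.035 and 0.335 for wild-type against control, mutant against control and wild-type against mutant.

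**Figure D5:**
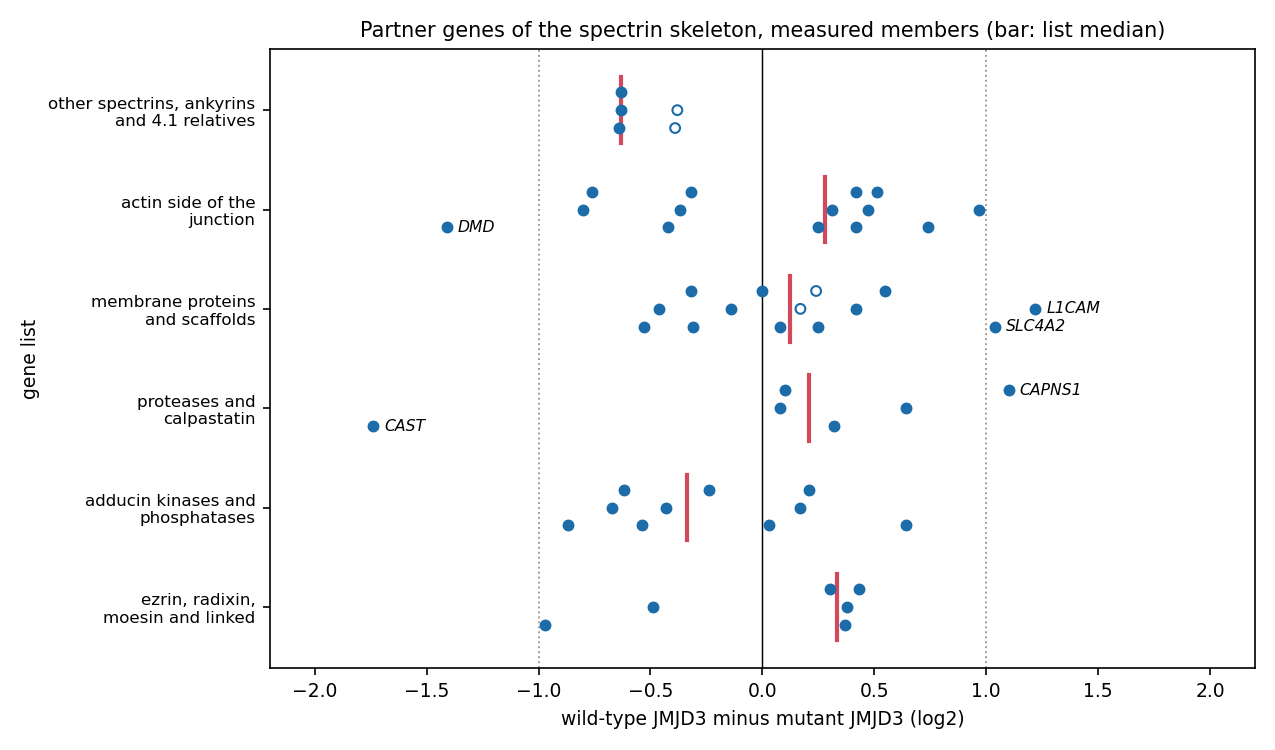
Log2 difference of wild-type JMJD3 minus mutant JMJD3 (horizontal axis) for the measured genes of each partner list (rows), with red bars at the list medians, open circles where 1 array was at or under the floor and names where a gene passed 2-fold. Each point is the probe set that stands for its gene, and other probe sets can differ. In the top row the 3 filled points lie near -0.63, and the 2 open circles could only lie left of 0, as they are over the floor with mutant JMJD3 alone. The genes past 2-fold are CAST and DMD at the left, and L1CAM, CAPNS1 and SLC4A2 at the right.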

How the data were processed

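Biotinylated cRNA from each PANC-1 line was read on 1 Affymetrix array, per the labels' protocols. The deposited values were log2 signals with 2 decimals; the submitters' processing notes name MAS5, and neither its settings nor the normalization between arrays is given in the sources used here. Nothing was renormalized. The platform annotation gave 1 gene symbol to 41091 probe sets, several to 1801 and none to 11721, and 41037 matched the RefSeq gene table of GRCh38.p14. Probe sets with several symbols were not named. Differences were taken after flooring at the 50th percentile of all values, with 1 array per line and no test. Calculation of calls was tested on simulated data. The members and lists were chosen with earlier results of these data known. Named are all 10 genes, up to 3 members of each partner list with the largest difference per comparison (in part described by counts), and the 5 genes nearest in pattern. CDH1 and other markers came from a fixed list, and EPB41L5's 230951_at was singled out after its values were seen. The promoter windows are the first 250 bases of the RefSeq entries of 9 members, 18 starts in all. The number of arrays limits the precision. The calculations ran in Python 3.11.15 (pandas 2.3.3, numpy 2.4.6), and figures were drawn with matplotlib 3.10.9.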

Additional observations from a re-analysis of the deposited data

How the results depend on the processing

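Among 7 alternatives, 2 changed the scaling (common median, quantiles). Another 3 changed the treatment of dim signals (a floor at the 40th or at the 60th percentile, or an offset instead). The last 2 changed the probe sets (the median signal per gene within each array, or shared ones dropped). That median can fall on different probe sets in different arrays, as it did for SPTAN1 in wild-type against mutant. With no replicates, a median or difference counted as moved where it shifted by more than the SD between probe sets of one gene (for a median, over the square root of the number of genes) or crossed 2-fold. A count past 2-fold had to equal that of the main setting or lie within a set ratio of it. Counts past 2-fold and medians stayed within these limits in 41 of 42 cases. The exception was the count for wild-type against mutant with the median over probe sets, which was 1 in place of 2, as SPTAN1 was 0.10 there. Not all 10 genes were measured under every alternative, so these cases do not always cover the same genes. For wild-type against control, 9 were measured with the 60th percentile floor, and 6 with the median over probe sets or without shared ones. For mutant against control, 7 were measured under each of these settings. ADD3 was past 2-fold for mutant against control and for wild-type against mutant under each of the 7, at 1.86 or more and at -2.27 or below. Of 185 single-gene values, 10 moved and 4 had the opposite sign: SPTAN1 (-0.17, median over probe sets) and SPTBN1 (0.03, shared ones dropped) for wild-type against control, and ADD2 for wild-type against mutant (-0.45 and -0.51 under the same settings). ADD2 for mutant against control was 0.45 with the median over its probe sets and 0.51 without shared ones. In both settings ADD2 was over the floor with mutant JMJD3 only. Its values there, in both comparisons with the mutant array, are therefore bounds, and being measured fixed their direction. SPTBN1 for mutant against control was -0.85 without shared ones. No alternative normalization can recover the variation between cultures. No paired analysis was possible because each line has 1 array.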
